A study of Mus musculus with 7 samples.

Results

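The semaphorins, plexins and neuropilins are a ligand and receptor system, measured here as messenger RNA in C3H10T1/2 cells, a clonal mouse line with mesenchymal properties. Members were all genes of the deposited count table whose mouse symbol is that of a semaphorin, a plexin or a neuropilin. This gave 31 genes of 54532 features: 20 semaphorins, 9 plexins and 2 neuropilins. The OB group held 4 libraries of cells kept for 3 days in complete medium for osteoblast induction, which added dexamethasone, ascorbic acid at 50 µM, β-glycerophosphate at 10 mM and penicillin-streptomycin. The control group held 3 libraries of untreated cells of the same line, and all cells were grown in serum-containing MEM. The supplements were given together, so a change cannot be assigned to 1 of them, and all libraries come from 1 cell line. The question was which members differ early in osteoblast induction.

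Semaphorins are secreted or membrane-bound proteins that share a sema domain and steer cell movement, cell contact and axon growth. Plexins are their receptors and act on the cytoskeleton and on cell adhesion. Secreted semaphorins of class 3 mostly need a neuropilin as co-receptor, and neuropilins also bind vascular growth factors. In mouse bone, Sema3A acting through Nrp1 favours osteoblast over osteoclast formation, while Sema4D from osteoclasts restrains osteoblasts through Plexin-B1.

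Total counts were 24816216, 43403730, 21213328 and 23618141 in OB 1 to OB 4, and 46530017, 35391045 and 25689889 in control 1 to control 3. Levels are given as CPM, the count scaled to a common library size, and as CPM per kilobase of exon where genes are compared with each other. The submitters' sample descriptions begin with C1 for OB 1 and control 1, with C2 for OB 2 and control 2, and with no C number for OB 3, OB 4 and control 3, and these are called label sets below. In both groups the libraries with no C number stood apart from those of C1 and C2 in the correlation of log2 CPM across genes. C1 and C2 did not separate from each other in this way. Control 3 correlated at 0.959 and 0.956 with control 1 and control 2, which correlated with each other at 0.989. OB 1 with OB 2 stood at 0.987 and OB 3 with OB 4 at 0.990, against 0.968 to 0.978 between these pairs. All 9 mesenchymal markers passed the filter on low counts, with a summed level of 22500 to 32600 CPM in OB and 29400 to 38900 CPM in control. The summed endothelial markers reached 7.98 CPM in OB and 10.3 CPM in control, and the macrophage and osteoclast markers 4.59 and 4.04 CPM. Cdh5, Ptprc, Adgre1, Rbfox3, Sox10 and Epcam, which define endothelial cells, blood cells, macrophages, neurons, glia and epithelium, each had at most 10 counts over the 7 libraries. Other genes of these lists were higher: Tek, an endothelial receptor gene, averaged 5.66 CPM in OB and 5.59 CPM in control, Cdh1, an epithelial cadherin gene, 0.882 and 1.87 CPM, and the glial gene Gfap 0.784 and 0.883 CPM. Among all markers 2 were called by edgeR, where 8.04% of all tested genes were. These were 1 of 9 tested mesenchymal markers and 1 of 3 tested neuron and glia markers. The mesenchymal receptor gene Pdgfra was higher in OB, with a log2 fold change of 1.54 ± 0.27 (SE, edgeR adjusted p = 0.0182). The neuronal tubulin gene Tubb3 was lower, with -2.07 ± 0.50 (SE, edgeR adjusted p = 0.0452). The part of these cells in the member results was not tested. The whole neuron and glia list summed to 135 to 296 CPM in OB and 113 to 158 CPM in control, most of it from Map2. The epithelial list summed to 0.324 to 1.34 CPM in OB and 1.27 to 3.50 CPM in control. In bulk RNA, a change in the number of cells that express a gene and a change in RNA per cell cannot be told apart.

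Of the 31 members, 28 passed the filter on low counts and were tested with edgeR's quasi-likelihood test, adjusted by Benjamini-Hochberg over 15441 genes. A pair of semaphorin genes, Sema3e and Sema5a, rose in OB at adjusted p under 0.05, no member fell, and 26 did not pass. The 2 called members are 7.14% of the 28 tested, beside 8.04% of all tested genes called in either direction 4.32% called higher and 3.72% called lower, so this share is near the background. At an unadjusted p under 0.05 by edgeR, 8 members were higher in OB and 1 was lower, which is 28.6% and 3.57% of the tested members. Over all tested genes 12.8% were higher and 12.4% lower at this threshold, 25.2% together. The same 5 members, Sema3e, Sema5a, Sema6c, Plxnc1 and Plxnd1, were higher by DESeq2, with 0 lower, and by limma-voom, with Plxna3 lower. With the replicate number as a block, 5 members were higher and 1 was lower, where 8.76% of all genes were called, and with the label set as a block 9 and 2, where 17.4% were called. DESeq2 called 12.9% of all genes, and limma-voom called 15.1%. The log2 fold changes of OB over control were positive for 20 and negative for 8 of the 28 members, with a median of 0.56, while over all tested genes 49.6% were positive with a median of -0.004. The member median was 0.26 without control 3, 0.23 among the C1 and C2 libraries, 0.20 by limma-voom and 0.90 among the libraries with no C number.

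**Figure D1:**
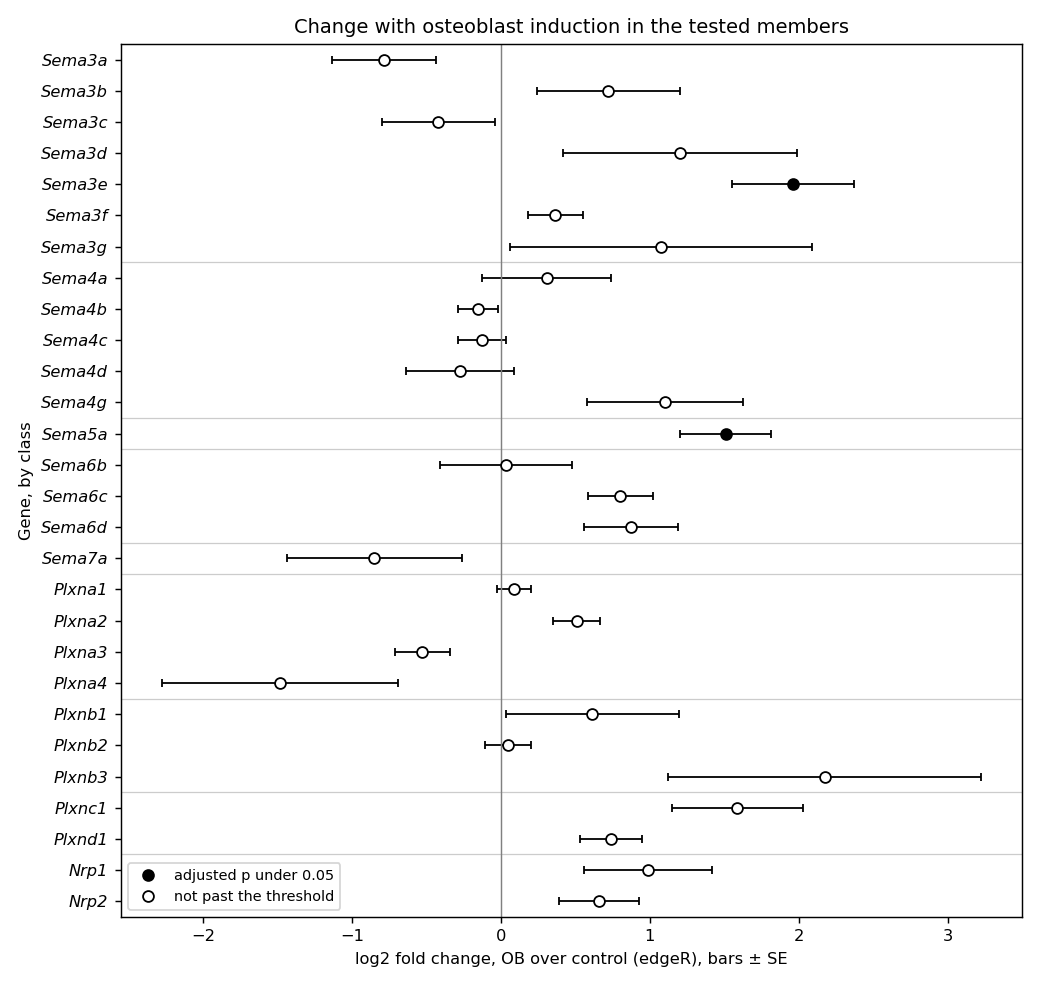
Log2 fold change of OB over control by edgeR for each of the 28 tested members, with bars of ± SE; filled points have adjusted p under 0.05. Sema3e and Sema5a are the filled points, at 1.96 and 1.51, and open points lie on both sides of 0 in the semaphorins and in the A plexins.

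The class 3 semaphorins are secreted ligands, and all 7 of them were tested. Sema3e (ENSMUSG00000063531, chr5:14025276-14256689 of mm10, plus strand) encodes a ligand that binds Plexin-D1 without a neuropilin and is best known for guiding vessels. It stood at 6.06, 2.94, 4.22 and 4.51 CPM in OB 1 to OB 4, against 1.02, 0.626 and 1.79 CPM in control 1 to control 3. Every OB library was above every control library, and the lowest, OB 2, was 2.94 CPM beside 1.79 CPM in the highest control. Sema3e averaged 4.43 ± 1.28 CPM in OB and 1.14 ± 0.589 CPM in control (SD, n = 4 and 3), and its log2 fold change was 1.96 ± 0.41 (SE, edgeR adjusted p = 0.0297). The OB over control ratio was 5.93 in label set C1, 4.69 in C2 and 2.44 among the libraries with no C number. The level remained low on the per-length scale, at 0.477 CPM per kilobase in OB and 0.123 in control. The call was lost without OB 1, OB 3, OB 4, control 1 or control 2, each in turn, with adjusted p = 0.0636 to 0.0896, and was kept under the replicate block (adjusted p = 0.0268, edgeR).

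Sema5a (ENSMUSG00000022231, chr15:32244810-32696341 of mm10, plus strand) encodes a transmembrane semaphorin with thrombospondin repeats that can attract or repel axons. It stood at 58.6, 26.8, 37.6 and 43.8 CPM in OB 1 to OB 4, against 12.9, 10.9 and 20.1 CPM in control 1 to control 3. The groups did not overlap, with OB 1 the highest library and control 2 the lowest. The means were 41.7 ± 13.2 CPM in OB and 14.7 ± 4.83 CPM in control (SD, n = 4 and 3), with a log2 fold change of 1.51 ± 0.31 (SE, edgeR adjusted p = 0.0276). Within label sets the ratio was 4.52 for C1, 2.46 for C2 and 2.02 with no C number. As for Sema3e, the call was lost without OB 1, OB 3, OB 4, control 1 or control 2 (adjusted p = 0.0561 to 0.0951, edgeR) and kept under the replicate block (adjusted p = 0.0301). Its class 5 relative Sema5b had 0 counts in all 7 libraries, where 3 counts equal 0.0639 to 0.139 CPM.

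The windows of 250 bases before the RefSeq start (GRCm38.p6) are shown for the called pair and for Plxnd1, the receptor of Sema3E, because they show how these promoters differ in base content. Each is written 5′ to 3′ along the gene's strand, with matches to GGGCGG (the GC box) and to TGTTCT (a short form of the glucocorticoid response element) in capitals, on either strand.
Sema3e, chr5:14025026-14025275, plus strand: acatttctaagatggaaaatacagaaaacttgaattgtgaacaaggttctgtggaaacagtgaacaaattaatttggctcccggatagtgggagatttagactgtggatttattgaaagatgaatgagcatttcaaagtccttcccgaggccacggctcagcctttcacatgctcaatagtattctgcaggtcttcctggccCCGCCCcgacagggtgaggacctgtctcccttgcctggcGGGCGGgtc
Sema5a, chr15:32244563-32244812, plus strand: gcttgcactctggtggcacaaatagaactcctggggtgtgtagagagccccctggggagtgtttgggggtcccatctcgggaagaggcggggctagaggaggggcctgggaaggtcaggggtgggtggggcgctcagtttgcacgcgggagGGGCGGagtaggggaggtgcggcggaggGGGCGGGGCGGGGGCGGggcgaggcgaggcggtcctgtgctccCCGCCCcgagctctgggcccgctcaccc
Plxnd1, chr6:115995006-115995255, minus strand: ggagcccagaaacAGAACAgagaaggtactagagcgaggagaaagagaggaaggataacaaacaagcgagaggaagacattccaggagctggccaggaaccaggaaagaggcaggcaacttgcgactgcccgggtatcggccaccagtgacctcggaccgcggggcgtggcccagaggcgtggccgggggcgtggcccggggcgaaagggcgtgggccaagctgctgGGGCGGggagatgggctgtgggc
The Sema3e window had 48.0% G and C, 7 CpG and 2 matches to GGGCGG, and the Sema5a window had 72.0%, 17 CpG and 5 matches, some of which overlap. The Plxnd1 window had 64.8% G and C, 16 CpG, 1 match to GGGCGG and 1 to TGTTCT. The medians over all 32851 windows of the table were 52.4% G and C and 6 CpG. Windows of 26 of the 31 members were used, 37 windows in all. Sema6a was left out of the member windows, so 26 is not a count of the members that RefSeq holds. GGGCGG occurred in 27 of these 37 windows and in 32.7% of all windows. TGTTCT occurred in 7 of them and in 16.1% of all windows, and TGTGGT, the Runx core, in 5 and in 14.0%. The full palindromic glucocorticoid response element, which contains TGTTCT, occurred in 0 of the 37 and in 0.00913% of all windows. Both strands were searched, and a match is a description of the letters only.

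Sema3a (ENSMUSG00000028883, chr5:13125414-13602565 of mm10) encodes the repulsive guidance cue that signals through Nrp1 and A plexins. It stood at 33.0, 11.1, 36.2 and 27.6 CPM in OB 1 to OB 4, against 48.3, 38.8 and 51.8 CPM in control 1 to control 3. Every OB library was below every control library, and OB 2 was the lowest. Its log2 fold change was -0.78 ± 0.35 (SE) and did not pass (edgeR adjusted p = 0.210). With the label set as a block it was -0.98 ± 0.25 (SE) and passed (edgeR adjusted p = 0.0431), and with the replicate block it did not (0.103). It was the only tested member with all OB libraries below all control libraries, where 12.3% of all tested genes had this order. Within label sets the OB over control ratio of Sema3a was 0.683, 0.286 and 0.615 for C1, C2 and no C number. The ratio of Sema3a to Sema3e on the per-length scale, formed after the values were seen, was 2.53 to 5.74 in OB libraries and 19.4 to 41.5 in control libraries. This separation follows from the opposite order of the groups in these genes and adds no evidence of its own.

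The most abundant semaphorin per kilobase was Sema3f, a ligand that acts through Nrp2. It stood at 119, 104, 120 and 106 CPM in OB 1 to OB 4, against 98.8, 103 and 60.0 CPM in control 1 to control 3. The groups were separated by a narrow margin at OB 2 and control 2, and control 3 was low. Sema3f had a log2 fold change of 0.37 ± 0.19 (SE, edgeR adjusted p = 0.263), and it held 38.0 ± 1.95% of summed semaphorin CPM per kilobase in OB and 34.3 ± 2.40% in control (SD, n = 4 and 3). The other class 3 genes overlapped between the groups. Sema3b had 19.3 to 41.2 CPM in OB and 6.19 to 28.4 CPM in control, and its lowest control library was control 3. Its log2 fold change was 0.72 ± 0.48 (SE, edgeR adjusted p = 0.391), and 1.09 ± 0.27 with the label set as a block (adjusted p = 0.0420). Sema3b did not pass under the replicate block (edgeR adjusted p = 0.0724), by DESeq2 (adjusted p = 0.357) or by limma-voom (adjusted p = 0.611). Sema3c, a cue for neural crest and heart cells, had 17.6 to 28.3 CPM in OB and 13.1 to 44.9 CPM in control. Sema3d had 1.74 to 27.9 CPM in OB and 4.21 to 8.35 CPM in control. Sema3g had 1.62 to 21.3 CPM in OB and 0.595 to 9.77 CPM in control. Sema3c and Sema3d went different ways in the label sets: the OB over control ratio of Sema3c was 0.563, 0.618 and 1.75 for C1, C2 and no C number, and that of Sema3d was 0.833, 0.413 and 5.07. The ratio of Sema3g was above 1 in each set, at 3.60, 2.18 and 4.80, and its log2 fold change under the replicate block was 1.47 ± 0.24 (SE, edgeR adjusted p = 0.0231), against 1.08 ± 1.01 without the block (adjusted p = 0.550). Single libraries moved this value: it was 0.22 without OB 2, 0.57 without control 3 and 2.47 without control 2, and limma-voom gave 0.11.

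**Figure D2:**
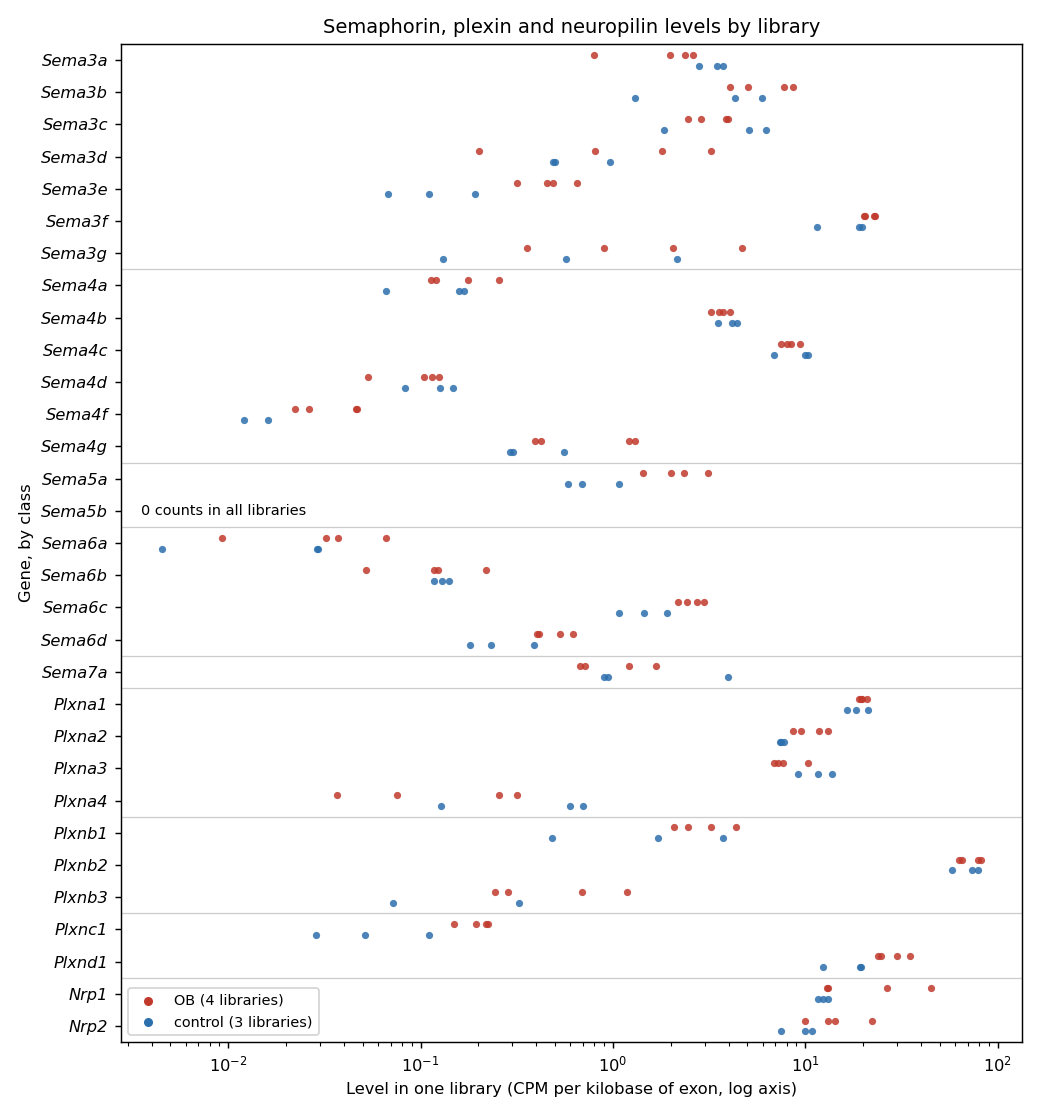
Level of all 31 members in each library, in CPM per kilobase of exon on a log axis, with OB libraries drawn above control libraries in each row; libraries with 0 counts are not drawn. Plxnb2 lies furthest right, Sema5b has 0 counts in all libraries, and the rows of Sema3e, Sema5a, Plxnc1 and Plxnd1 show OB libraries right of all control libraries.

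Class 4 semaphorins are membrane-bound ligands, and 5 of 6 were tested. None was called by edgeR, DESeq2 or limma-voom, 0 passed at an unadjusted edgeR p under 0.05, and all 5 overlapped between the groups. Over all tested genes 92.0% were not called by edgeR, 25.2% passed the unadjusted p and 74.5% overlapped. The most abundant per kilobase was Sema4c, a ligand of Plexin-B2, at 37.1, 34.3, 38.5 and 43.1 CPM in OB 1 to OB 4, against 46.1, 47.4 and 31.5 CPM in control 1 to control 3. Its log2 fold change was -0.12 ± 0.16 (SE, edgeR adjusted p = 0.678), and 7.27% of its exon bases overlap D430040D24Rik on the opposite strand. Sema4d, which encodes the Plexin-B1 ligand made by osteoclasts and lymphocytes, was rare at 0.407, 0.799, 0.881 and 0.952 CPM in OB 1 to OB 4, against 1.13, 0.968 and 0.635 CPM in control 1 to control 3. These correspond to 10 to 34 counts per OB library and 16 to 53 per control library, and the log2 fold change was -0.27 ± 0.36 (SE, edgeR adjusted p = 0.681). Sema4b stood at 18.2 to 22.9 CPM in OB and 20.0 to 25.1 CPM in control. Sema4a stood at 0.611 to 1.39 CPM in OB and 0.357 to 0.911 CPM in control. For Sema4g, OB 3 and OB 4 had 6.35 and 5.96 CPM, OB 1 and OB 2 had 1.91 and 2.07 CPM, and control libraries had 1.43 to 2.70 CPM. Sema4f did not pass the filter on low counts of the main fit, with 20 counts over the OB libraries and 6 over the control libraries. It stood at 0.118 to 0.248 CPM in OB and 0 to 0.0854 CPM in control, close to the counting floor. Its pooled level was 0.177 CPM in OB and 0.0559 CPM in control, with 95% exact Poisson intervals of 0.108 to 0.274 and 0.0205 to 0.122, which cover counting error only.

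Class 6 semaphorins are transmembrane ligands of A plexins, and 3 of 4 were tested. Sema6c, the most abundant of them per kilobase, stood at 12.9, 17.7, 14.4 and 16.3 CPM in OB 1 to OB 4, against 11.3, 8.63 and 6.43 CPM in control 1 to control 3. The groups did not overlap, and control 1 was closest to OB 1. The log2 fold change of Sema6c was 0.80 ± 0.22 (SE, edgeR adjusted p = 0.0636). Its adjusted p was 0.00970 with DESeq2, 0.0334 with limma-voom and 0.0386 with edgeR when control 1 was left out. It was 0.0966 to 0.173 with each of the other 6 libraries left out, 0.108 under the replicate block and 0.0491 with the label set as a block. Sema6d, which acts through Plexin-A1 in heart and bone, stood at 4.26 to 6.54 CPM in OB and 1.91 to 4.09 CPM in control, also without overlap, with a log2 fold change of 0.87 ± 0.31 (SE, edgeR adjusted p = 0.131). Sema6b stood at 0.207 to 0.870 CPM in OB and 0.468 to 0.556 CPM in control. Sema6a did not pass the filter on low counts of the main fit, with 35 counts over the OB libraries and 22 over the control libraries. The Poisson intervals of its pooled levels overlapped (0.216 to 0.431 CPM in OB, 0.129 to 0.310 CPM in control). Sema7a, the membrane-anchored semaphorin that binds integrins and Plexin-C1, stood at 4.03, 2.37, 5.52 and 2.23 CPM in OB 1 to OB 4, against 2.98, 3.10 and 13.1 CPM in control 1 to control 3. Control 3 alone was above every OB library. The log2 fold change of Sema7a was -0.85 ± 0.59 (SE, edgeR adjusted p = 0.406) with control 3 and 0.20 without it (adjusted p = 0.793).

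Among the receptors, all 9 plexins were tested and 0 were called by edgeR, beside 8.04% of all tested genes. At an unadjusted p under 0.05 by edgeR, 3 plexins were higher and 1 was lower, where 12.8% and 12.4% of all tested genes were. DESeq2 called Plxnc1 and Plxnd1 higher, and limma-voom called these higher and Plxna3 lower. Plxnd1 (ENSMUSG00000030123, chr6:115954811-115995005 of mm10, minus strand) encodes the receptor of Sema3E in vessels. It stood at 219, 257, 180 and 175 CPM in OB 1 to OB 4, against 140, 143 and 90.3 CPM in control 1 to control 3. Every OB library was above every control library, with control 3 the lowest. Plxnd1 averaged 208 ± 38.2 CPM in OB and 125 ± 29.7 CPM in control (SD, n = 4 and 3), and the log2 fold change was 0.74 ± 0.21 (SE, edgeR adjusted p = 0.0670). Under the replicate block it was 0.83 ± 0.12 (SE) and passed (edgeR adjusted p = 0.0164). Plxnd1 did not pass with any 1 library left out (edgeR adjusted p = 0.0908 to 0.155). The OB over control ratios of Plxnd1 were 1.57, 1.79 and 1.97 for C1, C2 and no C number. Plxnc1, which encodes the receptor of Sema7A, was rare but also separated, at 1.24 to 1.88 CPM in OB and 0.238 to 0.915 CPM in control. Its log2 fold change was 1.59 ± 0.44 (SE, edgeR adjusted p = 0.0643), and this p was 0.00720 with DESeq2, 0.0308 with limma-voom and 0.0215 with edgeR when control 1 was left out. It was 0.0942 to 0.187 with each of the other 6 libraries left out, 0.0583 under the replicate block and 0.0242 with the label set as a block.

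**Figure D3:**
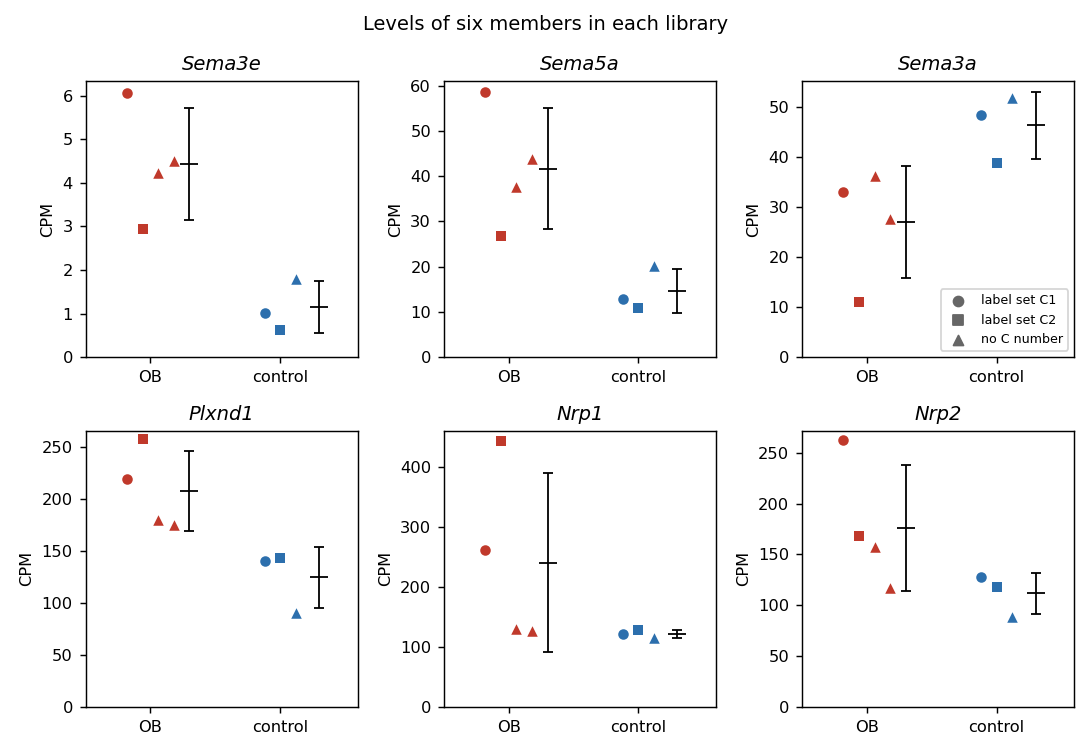
CPM in each library for Sema3e, Sema5a, Sema3a, Plxnd1, Nrp1 and Nrp2, OB left and control right, with symbols for label sets and a bar for mean ± SD. OB libraries lie above control libraries for Sema3e, Sema5a and Plxnd1 and below them for Sema3a, while OB 1 and OB 2 alone lie clearly above control for Nrp1.

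The A plexins are the signalling partners of neuropilins. Plxna1, the most abundant of them per kilobase, stood at 191, 178, 179 and 172 CPM in OB 1 to OB 4, against 166, 149 and 193 CPM in control 1 to control 3. The groups overlapped, and the log2 fold change was 0.09 ± 0.11 (SE, edgeR adjusted p = 0.680). Of the Plxna1 exon bases 10.7% overlap Gm26811 on the opposite strand, a gene with at most 128 counts in a library. Plxna2 stood at 149 to 225 CPM in OB and 127 to 133 CPM in control without overlap, with a log2 fold change of 0.51 ± 0.16 (SE, edgeR adjusted p = 0.0879), which passed with the label set as a block (0.0416) but not with the replicate block (0.0942). Plxna3 stood at 54.3 to 80.9 CPM in OB and 72.2 to 109 CPM in control, and its log2 fold change was -0.53 ± 0.18 (SE, edgeR adjusted p = 0.123). Control 3 was the control library within the OB range, and Plxna3 passed by limma-voom (adjusted p = 0.0384) and among the C1 and C2 libraries (edgeR adjusted p = 0.0164). It did not pass under the replicate block (0.0642) or the label set block (0.124), and its ratio with no C number was 0.981. Plxna4 was rare, at 0.517 to 4.50 CPM in OB and 1.79 to 9.88 CPM in control. Its ratio was below 1 in each label set, at 0.126, 0.288 and 0.410 for C1, C2 and no C number. Under the replicate block its log2 fold change was -1.94 ± 0.41 (SE, edgeR adjusted p = 0.0476), against -1.49 ± 0.79 without the block (adjusted p = 0.283).

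Of the B plexins, Plexin-B1 and Plexin-B2 are receptors of class 4 semaphorins. Plxnb2 was the most abundant member per kilobase, and it was the highest member in each of the 7 libraries. It stood at 614, 637, 503 and 485 CPM in OB 1 to OB 4, against 568, 610 and 448 CPM in control 1 to control 3. The groups overlapped, and its log2 fold change was 0.05 ± 0.16 (SE, edgeR adjusted p = 0.883). Plxnb1, the osteoblast receptor of Sema4D, stood at 19.9, 41.9, 23.5 and 31.0 CPM in OB 1 to OB 4, against 16.4, 35.9 and 4.60 CPM in control 1 to control 3. The groups overlapped, and control 3 was below every other library. The ratio of Plxnb1 was 1.21 and 1.17 in C1 and C2 and 5.93 with no C number, and the log2 fold change was 0.61 ± 0.58 (SE, edgeR adjusted p = 0.554). Plxnb3 stood at 1.59 to 7.71 CPM in OB, against 0.468, 2.11 and 0 CPM in control 1 to control 3, where control 3 had 0 counts.

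Neuropilins are the co-receptors of secreted semaphorins and of vascular growth factors. Nrp1 (ENSMUSG00000025810, chr8:128358604-128503363 of mm10) stood at 261, 442, 130 and 127 CPM in OB 1 to OB 4, against 121, 128 and 114 CPM in control 1 to control 3. OB 1 and OB 2 were high, while OB 3 and OB 4 lay near the highest control library. The means of Nrp1 were 240 ± 149 CPM in OB and 121 ± 6.82 CPM in control (SD, n = 4 and 3), and the log2 fold change was 0.99 ± 0.43 (SE, edgeR adjusted p = 0.202). Among the C1 and C2 libraries, which hold the high OB 1 and OB 2, it was 1.50 ± 0.25 (SE, edgeR adjusted p = 0.0284, with 9.67% of all genes called). With all libraries Nrp1 did not pass under the replicate block (edgeR adjusted p = 0.102) or the label set block (0.08). Nor did it pass by DESeq2 (adjusted p = 0.109) or limma-voom (adjusted p = 0.324). Among the libraries with no C number the ratio of Nrp1 was 1.12, with a single control library. A fit of these libraries called 40.1% of all genes under the assumption that the lone control varies like the OB pair, so nothing is read from its calls. Nrp2 (ENSMUSG00000025969, chr1:62703285-62818695 of mm10), the co-receptor of Sema3F, stood at 263, 168, 157 and 117 CPM in OB 1 to OB 4, against 128, 118 and 88.9 CPM in control 1 to control 3. Only OB 4 fell within the control range. The log2 fold change of Nrp2 was 0.66 ± 0.27 (SE, edgeR adjusted p = 0.172), and under the replicate block it was 0.79 ± 0.14 and passed (edgeR adjusted p = 0.0263). The label set block also passed (edgeR adjusted p = 0.0244). Nrp2 did not pass by DESeq2 (adjusted p = 0.125) or limma-voom (adjusted p = 0.226). Nor did it pass among the C1 and C2 libraries (edgeR adjusted p = 0.0768) or with any 1 library left out (0.117 to 0.322). The within-set ratios of Nrp2 were 2.06, 1.43 and 1.54 for C1, C2 and no C number.

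**Figure D4:**
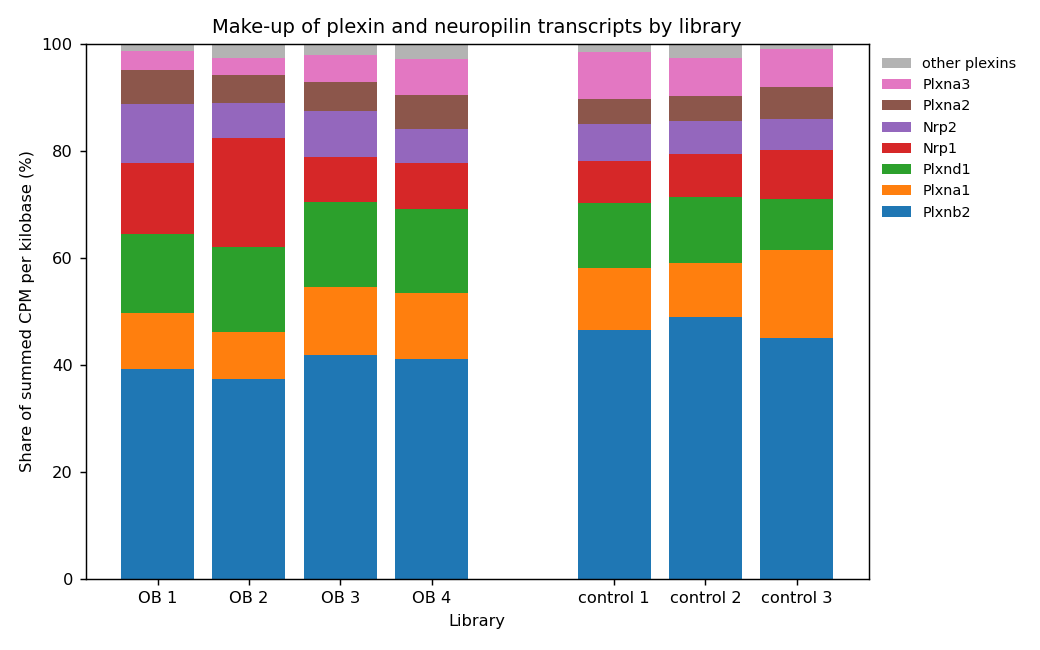
Share of each receptor gene in the summed plexin and neuropilin CPM per kilobase of each library, OB libraries left and control libraries right. The Plxnd1 share is 14.8 to 15.9% in OB and 9.59 to 12.2% in control, and Nrp1 reaches 20.4% in OB 2.

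On the per-length scale, summed plexin levels were 144 ± 16.6 CPM per kilobase in OB and 128 ± 15.6 in control (SD, n = 4 and 3), a difference within the spread of the libraries. Summed semaphorin levels were 56.9 ± 2.31 CPM per kilobase in OB and 48.5 ± 10.5 in control. Neuropilins summed to 48.9, 59.4, 26.5 and 22.9 CPM per kilobase in OB 1 to OB 4, against 23.1, 23.0 and 19.2 in control 1 to control 3. The share of Plxnb2 in plexin and neuropilin CPM per kilobase was 37.3 to 41.8% in OB libraries and 45.0 to 48.9% in control libraries. For Plxna3 it was 3.11 to 6.73% in OB and 7.10 to 8.77% in control. These shares move with each other because they add up to the whole, and they are given with no test.

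The OB over control ratio was above 1 in all 3 label sets for 15 members, below 1 in all 3 for 4 members, and mixed for 9. Plxnb3, with no control count in 1 set, is counted among the 15. These are 53.6% and 14.3% of the tested members, beside 26.5% and 25.4% of all tested genes, 51.9% together. The libraries of the groups did not overlap for 8 members with OB above and for 1 with OB below, that is 28.6% and 3.57% of the tested members, beside 13.2% and 12.3% of all tested genes. The 8 members were Sema3e, Sema3f, Sema5a, Sema6c, Sema6d, Plxna2, Plxnc1 and Plxnd1. Among the mixed members, the ratio of Sema4a was 0.764, 0.671 and 3.28 for C1, C2 and no C number, and that of Sema4g was 0.707, 1.40 and 4.31. Whether the label sets are batches is not given in the labels.

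**Figure D5:**
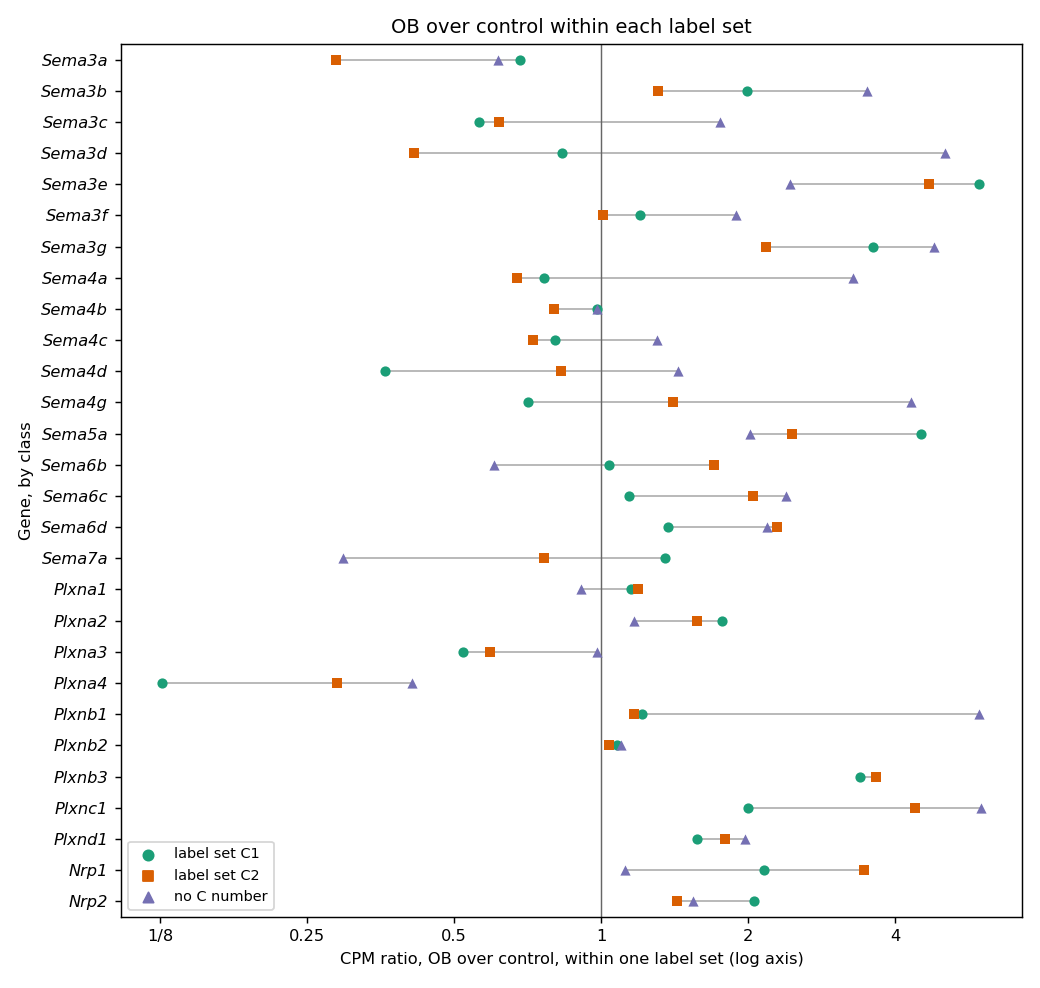
CPM ratio of OB over control within each label set for the 28 tested members, on a log axis; in the set with no C number the mean of OB 3 and OB 4 is divided by control 3, and Plxnb3 has no ratio there. Ratios of Sema3e, Sema5a and Plxnd1 lie above 1 in all 3 sets, those of Sema3a lie below 1, and those of Sema3d lie on both sides.

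Of 66 further genes of the pathway, 53 were tested and 48 of these did not pass. The other 5 were 4 genes higher in OB and 1 gene lower, which is 9.43% called beside 8.04% of all tested genes. Their median log2 fold change was -0.03. Calls were most frequent among the 7 other ligands of neuropilins, with 2 higher and 1 lower. Vegfd, a lymphatic growth factor gene, stood at 296, 299, 172 and 225 CPM in OB 1 to OB 4, against 70.5, 70.2 and 41.2 CPM in control 1 to control 3, with a log2 fold change of 2.03 ± 0.27 (SE, edgeR adjusted p = 0.00840). Vegfc, its close relative, had a log2 fold change of 1.41 ± 0.30 (SE, edgeR adjusted p = 0.0325), and Hgf, the ligand of the Met receptor, had -1.12 ± 0.17 (adjusted p = 0.0127). The calls of Vegfd and Hgf held whichever library was left out, and that of Vegfc was lost without OB 1, OB 2, OB 3, control 2 or control 3 (adjusted p up to 0.114).

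Of 32 cytoplasmic effectors 29 were tested by edgeR. In OB 2 of them were higher and 0 lower, with 27 not past the threshold, and with 4 higher and 1 lower at an unadjusted p under 0.05, beside 8.04% of all tested genes called and 25.2% past the unadjusted p. Rnd3, an atypical small GTPase that acts on the actin cytoskeleton, stood at 252, 201, 225 and 194 CPM in OB 1 to OB 4, against 127, 121 and 129 CPM in control 1 to control 3. Its log2 fold change was 0.79 ± 0.12 (SE, edgeR adjusted p = 0.0123), and the call was lost without control 2 (adjusted p = 0.0575). Mical3, of the flavin monooxygenase family that acts on actin downstream of plexins, had a log2 fold change of 0.65 ± 0.14 (SE, edgeR adjusted p = 0.0320), which did not pass under the replicate block (adjusted p = 0.0524) or without OB 1, OB 2, OB 3, OB 4 or control 2 (adjusted p up to 0.0849). None of the 10 tested co-receptors and alternative receptors and none of the 7 tested proteases was called by edgeR, with 1 higher and 1 lower in each list at an unadjusted p under 0.05. Over all the further pathway genes 6 of 58 were higher and 3 lower by DESeq2, where 12.9% of all genes were called, while 8 and 4 of 53 were so by limma-voom, where 15.1% were. Itgb1, the integrin chain that takes part in Sema7A binding, stood at 848 to 1010 CPM in OB and 759 to 1050 CPM in control. Itgav stood at 183 to 225 CPM in OB and 214 to 277 CPM in control. Adamts1, a protease that cuts Sema3C, stood at 1310 to 2640 CPM in OB and 646 to 1660 CPM in control, and Mmp14, which cuts Sema4D, at 748 to 1140 CPM in OB and 381 to 634 CPM in control (edgeR adjusted p = 0.0641).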

How the data were processed

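Poly(A) RNA-seq of 7 libraries of C3H10T1/2 cells was used. Per the labels, library preparation followed the TruSeq v2 protocol, in which strand is not kept. The deposited counts, per the file headers, give the read pairs that featureCounts 1.6.4 assigned to the Ensembl 94 exons of a gene. No option for strand, multi-mapping or overlap was set, and the counts are not normalised. Per the submitters' processing notes, Trimmomatic, HISAT2 and mm10 were used, in versions not given in the sources used here. Deposited exon lengths, another kind of value, served only to give CPM per kilobase. Columns were matched to samples through the input order that the counting command lists, which could not be checked independently. All 7 value columns were used.

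Of 54532 features 54409 had a symbol. Counts were fitted in R 4.3.3 with edgeR 4.0.16 (filterByExpr, TMM factors of 0.981 to 1.024, quasi-likelihood test, adjustment over 15441 genes, threshold 0.05), and the fit was tested on simulated data. The SE is the absolute log2 fold change divided by the square root of F. The common biological coefficient of variation was 26.9%. A count of 3 equals 0.0639 to 0.139 CPM. Alternatives were DESeq2 1.42.0, limma-voom (limma 3.58.1), other scalings, no filter, blocks, label sets alone, and each library left out. The members and lists were chosen with earlier results of these data known.

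Named with a value in every library were called members, Sema3a, Sema4d, Sema7a, Nrp1, Nrp2, Plxna1, Plxnb1, Plxnd1 and the most abundant member of each class. Of each pathway list up to 4 called genes were named in order of p, or the 2 most abundant where fewer than 2 were called. The main fit was unpaired, and replicate numbers served as a block in an alternative fit only. Deviations from group means correlated above 0.1 for numbers 1, 2 and 3 (0.167, 0.523 and 0.398 across genes), although OB 1 correlated more with control 2 (0.209). OB 4 has no control of its number. Libraries of a group differed by chi-square values of 13.56 to 148.2 per degree of freedom, above sampling noise. Replicates are biological according to the design text, with no word on separate cultures, so a p-value reflects only how these 7 libraries vary. Of each member's 50-base words at most 7.06% (Plxna1) recur in other genes.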

Additional observations from a re-analysis of the deposited data

How the results depend on the processing

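Both member calls, Sema3e and Sema5a, kept their direction under all 16 alternatives. They passed under the other scalings, with no filter, by DESeq2 and limma-voom, under both blocks and among the C1 and C2 libraries. With 1 library left out, each passed in 2 of 7 fits. Of 448 values of the 28 tested members under these alternatives, 378 kept direction and side of the threshold, 41 newly passed, 10 no longer passed and 19 changed sign. These tallies include the fit of the libraries with no C number, which has a single control, and nothing is read from its calls. The scalings moved the median of all genes by at most 0.012. Members higher in OB numbered 5 by DESeq2, by limma-voom, under the replicate block and among the C1 and C2 libraries, 9 under the label set block (17.4% of all genes called, 9.28% higher) and 16 among libraries with no C number (40.1% called, 18.9% higher), where the lone control was assumed to vary like the OB pair. Members lower numbered 1 by limma-voom, under the replicate block and among C1 and C2 libraries, 2 under the label set block and 3 with no C number. The number of members higher was 0 to 2 with a library left out, and that of members lower 0.

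Over all genes DESeq2 called 1292 higher and 1129 lower, limma-voom 1247 and 1081, the label set block 1433 and 1256, and libraries with no C number 3052 and 3413, while C1 and C2 libraries gave 1030 higher. With a library left out, 190 to 575 genes were higher (fewest without control 2) and 104 to 703 lower (fewest without OB 1). Pathway genes higher numbered 6 of 58 by DESeq2 (6.9% of all genes) and 8 of 53 by limma-voom (8.08%). They numbered 7 of 53 under the label set block (9.28% of all genes) and 9 of 56 in C1 and C2 (6.27%). With a library left out they numbered 1 to 5, where 1.2 to 3.52% of all genes were higher. Pathway genes lower numbered 3 by DESeq2 and under the replicate block, 4 by limma-voom, 5 under the label set block, 2 in C1 and C2 and 11 with no C number, and 1 with any library left out. Under the replicate block, Sema3g, Plxnd1 and Nrp2 newly passed as higher and Plxna4 as lower, Mical3 did not pass, and no other member changed its call.

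Signs changed in members that edgeR did not call. Among libraries with no C number the log2 fold changes were 0.79 for Sema3c, 0.36 for Sema4c, 0.51 for Sema4d, -0.75 for Sema6b and -0.15 for Plxna1. Among C1 and C2 libraries they were -0.56 for Sema3d, -0.48 for Sema4a, -0.075 for Sema4g and 0.062 for Sema7a. By limma-voom they were -0.21 for Sema6b, 0.034 for Sema7a and -0.11 for Plxnb2. With a library left out the range was -0.40 to 0.28 for Sema6b, -1.21 to 0.20 for Sema7a, -0.0073 to 0.18 for Plxna1 and -0.081 to 0.13 for Plxnb2. The cause of these changes was not tested. Depth limits the rare members: Sema4a, Sema4d, Sema4f, Sema6a and Sema6b had at most 53 counts in a library.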

Other observations

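Several alternative receptors of semaphorins that belong to immune cells were close to or at the counting floor. Tyrobp, the adaptor that links Plexin-A1 to Trem2 in osteoclasts, and Timd2, a receptor of Sema4A on T cells, had 0 counts in all 7 libraries. Trem2 had 11 counts over the OB libraries and 5 over the control libraries. Cd72, the B cell receptor of Sema4D, had 20 counts over the OB and 38 over the control libraries. Among the vascular receptors that pair with neuropilins, Kdr had 16 counts over the OB and 5 over the control libraries and Flt4 had 7 and 7, whereas Flt1 stood at 66.2 CPM in OB and 30.9 CPM in control on average, with OB libraries above all control libraries and a log2 fold change of 1.10 ± 0.36 (SE, edgeR adjusted p = 0.102). Among neural adhesion partners Chl1 had 1 count over the OB libraries and 0 over the control libraries, while L1cam averaged 26.0 CPM in OB and 33.3 CPM in control (edgeR adjusted p = 0.710). These genes were picked after their values were seen.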
